A study of Mus musculus with 8 samples.

Results

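The genes described here are 7 genes of the paraspeckle and its surroundings, namely the paraspeckle protein genes Pspc1, Sfpq, Nono, Rbm14 and Hnrnpk and the nuclear long noncoding RNAs Neat1 and Malat1. They were picked around Pspc1, because its rise under AG636 was among the largest in these data, and the other 6 were added for their known roles. The set was thus chosen by the measured difference of Pspc1 between AG636 and Vehicle, whose values are given as a description with no test. All 7 were found among the 54838 genes of the count table, and all 7 passed the filter on low counts, as did 10911 genes in all.

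To follow early transcript changes under inhibition of DHODH, an enzyme of pyrimidine synthesis, RNA was measured in acute myeloid leukemia (AML) cells. The cells carried the RUNX1-RUNX1T1 fusion on a C57BL/6 background and grew in Ptprca recipient mice, which per the labels had been sub-lethally irradiated, although the methods of the study name irradiation for other models and not for this one. Of the 8 samples, 4 came from mice that received vehicle (Vehicle) and 4 from mice that received the DHODH inhibitor AG636 at 100 mg/kg by gavage b.i.d., and the methods describe treatment for a single day before leukemia cells were sorted as Kit-positive and CD11b-negative. Bone marrow and spleen are both named as source, without saying which sample came from which, and the age and sex of the mice are not given. Nothing in the labels states that the samples of a group are separate mice, and a legend of the study lists fewer mice for each group of this model than the 4 samples used here. Some samples may therefore share a mouse, and every SD and p-value measures the spread between these samples only. The model is a transplanted leukemia in which the whole transcriptome was read from sorted bulk cells, and fewer cells of a type cannot be told apart from less RNA per cell.

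Paraspeckles are nuclear bodies that assemble on the long isoform of Neat1. The DBHS proteins SFPQ, NONO and PSPC1 are closely related RNA-binding proteins that pair with each other and coat this RNA, RBM14 helps the body to condense, and HNRNPK favors the long over the short isoform of Neat1. Malat1, the neighbor of Neat1 in the genome, is the abundant long RNA of nuclear speckles, where splicing factors of the SR family gather. The short Neat1 isoform ends in a poly-A tail, whereas the mature ends of long Neat1 and of Malat1 are made by RNase P, which cuts in front of a tRNA-like fold, and then form a triple helix over a genomically encoded A-rich stretch.

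The libraries were 3′ tag libraries primed on A-rich stretches, so the 3′ ends of the long RNAs bear on what their counts hold, and the stretch of each that precedes the cleavage is shown here. Each line gives 30 bases, 5′ to 3′, of the GENCODE M21 transcript (GRCm38), and the capitals mark an 11-base element that the transcripts share.
Malat1-201: ttccctagctttaaaaaaaAAAAAGCAAAA
Neat1-201: gagaacgaacgtgagcaggAAAAAGCAAAA
In Neat1-201, of 20771 bases, the element was the last 11 bases of the annotated transcript. In Malat1-201, of 6983 bases, it ended at base 6691, which left 292 annotated bases after it. Of the longest transcripts of 10906 tested genes, 131 (1.20%) held the element anywhere. The short isoform Neat1-202, of 3004 bases, matched the long one from base 3 to base 3172 of it except for a spliced gap of 166 bases, so that the gene count cannot separate the isoforms. Outside the last 100 bases, runs of at least 10 A were 0 in Neat1-201 and 1 in Malat1-201, which is the run of 12 A shown above. Of the 5 protein genes, Pspc1-201 held 1, of 11 A, and the others 0, and such a run was present in 1876 of the 10906 transcripts (17.2%). Which A-rich stretch primed the reads of Neat1, Malat1 or Pspc1 was not tested.

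The promoters of Pspc1, which was higher under AG636, and of Sfpq and Rbm14, which were lower, are shown to set the sequences of genes with opposite changes side by side. Each line gives the 250 bases before the RefSeq start (GRCm38.p6), 5′ to 3′ on the strand of the gene, and the capitals mark CCAAT or its reverse complement ATTGG. Pspc1 lay at chr14:56778319-56778568 on the minus strand, Sfpq at chr4:127021051-127021300 on the plus strand and Rbm14 at chr19:4811635-4811884 on the minus strand.
Pspc1: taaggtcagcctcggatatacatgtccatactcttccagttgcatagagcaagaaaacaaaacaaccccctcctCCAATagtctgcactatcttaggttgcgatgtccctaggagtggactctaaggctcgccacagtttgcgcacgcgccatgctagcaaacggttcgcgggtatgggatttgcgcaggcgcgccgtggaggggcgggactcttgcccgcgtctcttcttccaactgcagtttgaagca
Sfpq: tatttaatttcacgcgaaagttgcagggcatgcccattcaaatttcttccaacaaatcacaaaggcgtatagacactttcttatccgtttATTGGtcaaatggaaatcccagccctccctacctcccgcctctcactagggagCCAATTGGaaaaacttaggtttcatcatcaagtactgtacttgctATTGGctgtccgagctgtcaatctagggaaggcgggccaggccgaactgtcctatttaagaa
Rbm14: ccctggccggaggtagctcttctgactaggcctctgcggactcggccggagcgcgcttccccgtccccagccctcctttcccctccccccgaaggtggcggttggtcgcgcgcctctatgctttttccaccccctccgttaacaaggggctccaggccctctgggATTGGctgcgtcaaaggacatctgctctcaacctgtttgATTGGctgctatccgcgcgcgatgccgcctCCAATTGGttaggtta
The RefSeq promoter table matched 6 of the 7 genes, all but Neat1. In windows that also held the 50 bases after the start, CCAAT was found on either strand for Pspc1, Sfpq, Nono, Rbm14 and Hnrnpk and not for Malat1, and it was present in 38.3% of the 10404 promoters of tested genes. AANATGGC, a YY1-like motif, was found for Pspc1 and Sfpq, against 9.40% of these promoters. CACGTG (10.2%), TATAAA (6.54%) and CCGGAAGT (9.27%) were found in none of the 6 windows. GC content was 54.4% for Pspc1, 45.2% for Sfpq, 63.2% for Rbm14, 53.2% for Nono, 69.2% for Hnrnpk and 44.0% for Malat1, with a median of 59.8% over promoters of tested genes. Presence of these letters is a description and does not speak to binding, and the genes with opposite changes both held CCAAT.

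Expression levels below are CPM, counts scaled to a common library size after TMM adjustment. In a 3′ tag library a polyadenylated transcript gives about 1 read per copy whatever its length, which does not hold for RNAs primed inside. Total counts were 6586446 to 7162036 in Vehicle and 6120030 to 6610360 in AG636. Replicates were more alike in Vehicle than in AG636, and Vehicle sample 4 stood apart from the other 3 (chi-square per degree of freedom 9.31 to 13.2, against 3.90 to 4.59 among the others). The progenitor genes Kit, at 163 CPM in Vehicle and 206 CPM in AG636, Myb, at 447 and 579 CPM, and Runx1, at 263 and 263 CPM, were well expressed, whereas Ptprc, Cd34 and Mpo were low, at 3.87, 8.63 and 3.18 CPM in Vehicle, and Cd33 had at most 4 counts in a sample. In the limma-voom comparison of AG636 with Vehicle, 1523 of the 10911 tested genes (14%) passed an adjusted p of 0.05, of which 597 were higher (5.47%) and 926 lower (8.49%). Scaling by library size alone turned this split to 918 higher and 571 lower.

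The members moved in opposite directions. Both nuclear long RNAs, Neat1 and Malat1, rose, the DBHS partners Sfpq and Nono and the paraspeckle protein Rbm14 fell, and Pspc1, by which the set was picked, was 2.69-fold higher. Of the 6 genes other than Pspc1, 2 were called higher, 3 were called lower and Hnrnpk was not called. With TMM scaling the 4 AG636 values of each of these 6 genes lay entirely above (2 genes) or below (4 genes) the 4 Vehicle values, where 22.2% of all tested genes did not overlap (9.35% higher, 12.9% lower). With RLE factors or library size alone Hnrnpk overlapped and the other 5 did not. With Vehicle sample 4 and AG636 sample 3 left out together, 5 of the 6 were called, as against 14.1% of all tested genes. Without AG636 sample 3 or 4 the count stayed at 5, and each other sample left out lowered it for the 6 genes and for all genes: 1 of the 6 was called without Vehicle sample 1 (7.2% of all genes) or 3 (6.19%), 3 without Vehicle sample 2 (8.27%) or 4 (9.11%), and 4 without AG636 sample 1 (9.43%) or 2 (11.2%). Scaling by library size alone left 4 called (13.6%). At an adjusted p under 0.01, 1 of the 6 was called, Nono (3.99% of all genes), and 1 had a log2 fold change of at least 1 beside the 0.05 threshold, Neat1 (1.98%).

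**Figure D1:**
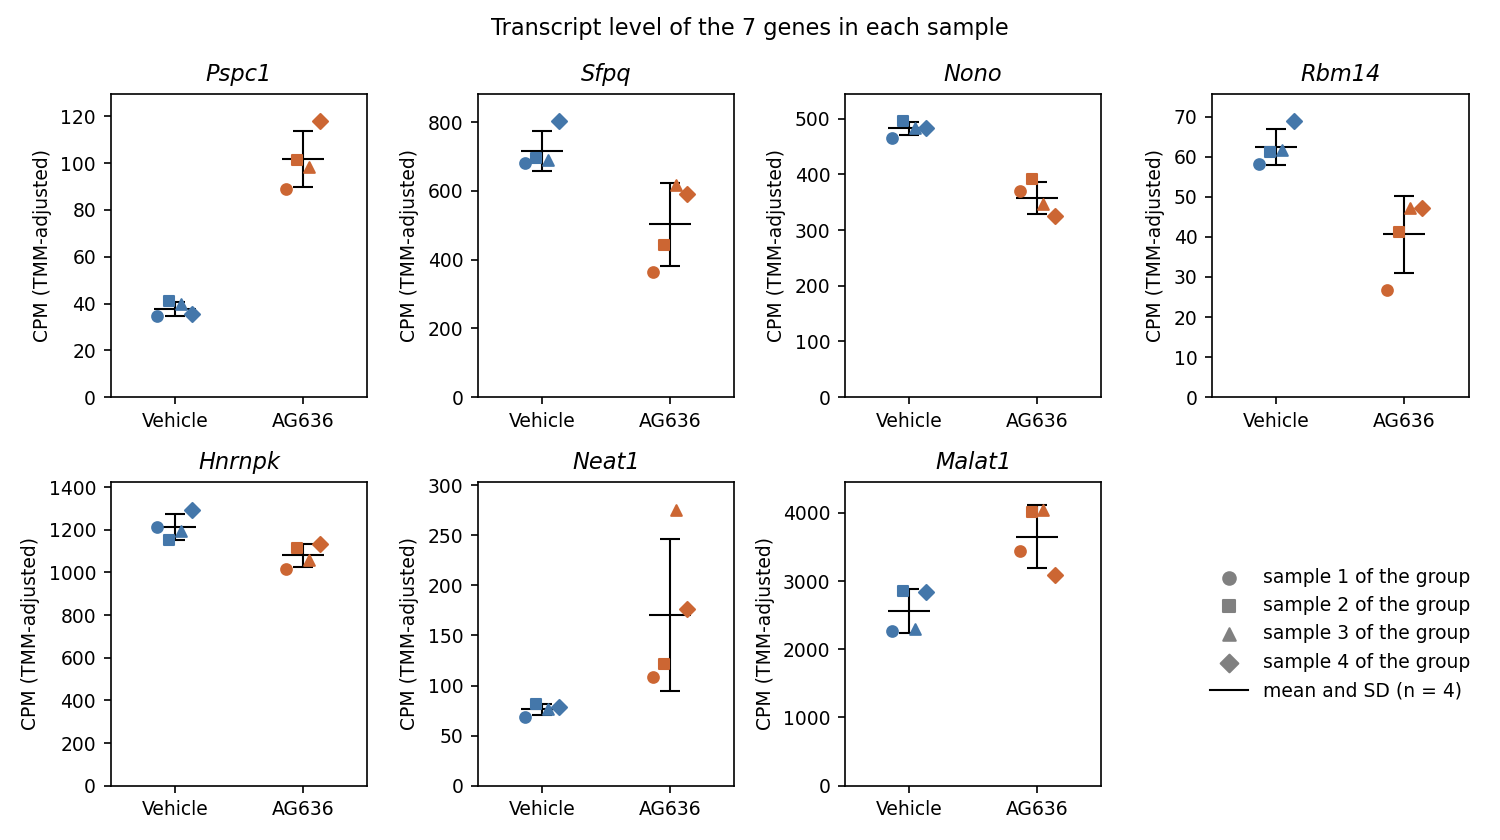
TMM-adjusted CPM (y axis, from 0) of the 7 genes in the 4 Vehicle (blue) and 4 AG636 (orange) samples, with the mean and SD (n = 4), marker shapes giving the sample number within its group. With this scaling none of the 7, among them Pspc1 that chose the set, overlapped between the groups, as for 22.2% of all tested genes. Hnrnpk overlapped with RLE factors or library size alone. The AG636 samples of Neat1 spread from 109 to 276 CPM.

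Pspc1 (ENSMUSG00000021938, chr14:56720710-56778316, minus strand) encodes the DBHS protein PSPC1. Vehicle samples 1 to 4 had 34.5, 41.0, 39.6 and 35.6 CPM, and AG636 samples 1 to 4 had 89.1, 101, 98.5 and 118 CPM. The lowest AG636 sample was above the highest Vehicle sample by more than the range of either group. Its mean was 37.7 ± 3.12 CPM in Vehicle and 102 ± 12.02 CPM in AG636 (SD, n = 4). The log2 fold change was 1.43 (SE 0.11, 95% interval 1.18 to 1.67), the value ranked 91 among the 10911 tested genes from the largest rise down, and since this value chose the set it carries no test. Its level percentile among tested genes was 55.8 in Vehicle and 81.7 in AG636. Over 20 other fits, scalings, filters and left-out samples, the log2 fold change stayed between 1.37 and 1.498.

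The partners of PSPC1 were lower. Sfpq (ENSMUSG00000028820, chr4:127021324-127037013, plus strand), which had the highest mean transcript level of the 3 DBHS genes in both groups, had 680.1, 695, 689 and 803 CPM in Vehicle samples 1 to 4. In AG636 samples 1 to 4 it had 364, 442, 617 and 589.7 CPM. AG636 samples 1 and 2 lay well below samples 3 and 4, and Vehicle sample 4 lay above the other Vehicle samples. Means were 717 ± 57.7 CPM in Vehicle and 503 ± 120.2 CPM in AG636 (SD, n = 4). The log2 fold change was -0.54 (SE 0.16, 95% interval -0.88 to -0.20, limma adjusted p = 0.0420), a level 0.688 times that of Vehicle. This call was near the threshold and was lost without any 1 of the Vehicle samples or without AG636 sample 1 or 2 (limma adjusted p = 0.0783 to 0.108), with a log2 fold change of -0.40 without AG636 sample 1.

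Nono (ENSMUSG00000031311, chrX:101429318-101448591, plus strand), whose protein forms heterodimers with SFPQ and with PSPC1, was steadier between samples than Sfpq. Vehicle samples 1 to 4 had 466, 496, 484 and 484 CPM, and AG636 samples 1 to 4 had 370.3, 391, 347 and 325 CPM. All 4 AG636 values were below all 4 Vehicle values with a wide gap. The mean was 482 ± 12.2 CPM in Vehicle and 358 ± 28.6 CPM in AG636 (SD, n = 4). The log2 fold change was -0.43 (SE 0.08, 95% interval -0.61 to -0.26, limma adjusted p = 0.00739), and Nono was called lower in all 20 alternatives.

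Because Pspc1 and its partners moved apart, the makeup of the DBHS transcripts differed between the groups. Pspc1 made up 2.92% (95% Wilson interval 2.58% to 3.31%), 3.33% (2.96% to 3.75%), 3.27% (2.89% to 3.68%) and 2.69% (2.37% to 3.05%) of the summed counts of Pspc1, Sfpq and Nono in Vehicle samples 1 to 4. In AG636 samples 1 to 4 the share was 10.8% (10.01% to 11.7%), 10.8% (10.1% to 11.7%), 9.27% (8.60% to 9.99%) and 11.4% (10.7% to 12.2%). The intervals cover counting error only. Every AG636 share was above every Vehicle share, with no test since the share uses the rise of Pspc1. The mean share of Pspc1 was 3.05% ± 0.300 in Vehicle and 10.6% ± 0.920 in AG636 (SD, n = 4), while that of Sfpq was 57.9% ± 1.94 and 51.7% ± 6.95 and that of Nono was 39.1% ± 1.66 and 37.7% ± 6.68. The sum of the DBHS transcripts was 1237 ± 60.9 CPM in Vehicle and 963 ± 108 CPM in AG636, so the higher Pspc1 did not make up in number for the lower Sfpq and Nono.

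**Figure D2:**
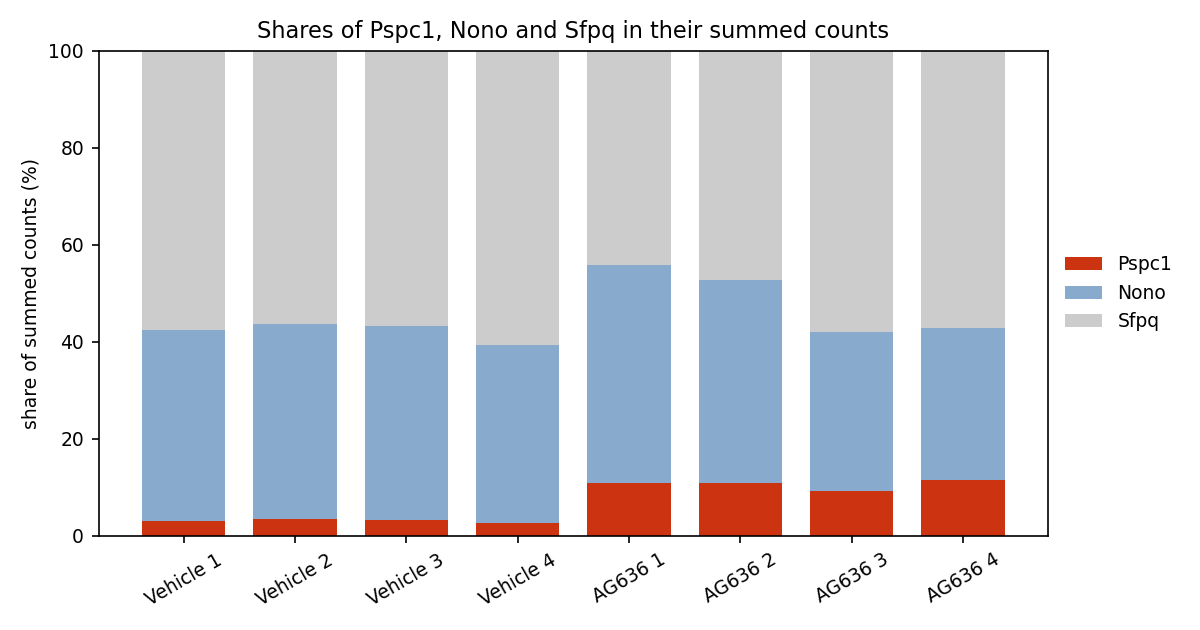
Percent (y axis) of the summed counts of Pspc1, Nono and Sfpq taken by each gene in each of the 8 samples (x axis). Pspc1 took 2.69% to 3.33% in Vehicle and 9.27% to 11.4% in AG636, and in AG636 the split between Nono and Sfpq differed between samples 1 and 2 and samples 3 and 4.

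Rbm14 (ENSMUSG00000006456, chr19:4800569-4811634, minus strand) encodes a protein with a prion-like domain that joins smaller paraspeckle particles. It had 58.1, 61.2, 61.6 and 68.9 CPM in Vehicle samples 1 to 4 and 26.7, 41.3, 47.2 and 47.1 CPM in AG636 samples 1 to 4. AG636 sample 1 was the lowest by far, and all 4 lay below the Vehicle samples. The group means were 62.5 ± 4.58 and 40.6 ± 9.64 CPM (SD, n = 4), and Rbm14 changed by -0.65 on the log2 scale (SE 0.16, 95% interval -1.01 to -0.29, limma adjusted p = 0.0247). The call was lost when any 1 Vehicle sample was left out, at a limma adjusted p of 0.0515 to 0.0662 and log2 fold changes of -0.69 to -0.59. Without AG636 sample 1 the log2 fold change was -0.46 and stayed called.

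Hnrnpk (ENSMUSG00000021546, chr13:58391142-58403343, minus strand), which encodes an RNA- and DNA-binding hnRNP protein, differed least. Vehicle samples 1 to 4 had 1211, 1149.9, 1195 and 1294 CPM, and AG636 samples 1 to 4 had 1014, 1115, 1057 and 1134 CPM. The highest AG636 and the lowest Vehicle sample were close, and the groups overlapped with RLE factors or library size alone. Means were 1212 ± 60.2 CPM in Vehicle and 1079.7 ± 54.9 CPM in AG636 (SD, n = 4). The log2 fold change of -0.17 (SE 0.08, 95% interval -0.34 to 0.0046) missed the threshold at a limma adjusted p of 0.173, and it missed it in all 20 alternatives.

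Neat1 (ENSMUSG00000092274, chr19:5824708-5845478, minus strand), the RNA on which paraspeckles are built, rose in every AG636 sample but to different degrees. Vehicle samples 1 to 4 had 68.2, 81.6, 76.8 and 78.5 CPM. AG636 samples 1 to 4 had 109, 121, 276 and 176 CPM. AG636 sample 3 was the highest, samples 1 and 2 were closest to Vehicle, and the groups did not overlap. Neat1 averaged 76.3 ± 5.75 CPM in Vehicle and 170.5 ± 76.0 CPM in AG636 (SD, n = 4), higher by 1.06 on the log2 scale (SE 0.25, 95% interval 0.52 to 1.61, limma adjusted p = 0.0182), or 2.09-fold. Without AG636 sample 3 the log2 fold change was 0.80 and still called, and the call was lost without Vehicle sample 1 (log2 fold change 1.01, limma adjusted p = 0.0578) or Vehicle sample 3 (1.06, limma adjusted p = 0.0550).

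Malat1 (ENSMUSG00000092341, chr19:5795690-5802672, minus strand) was the most abundant member in both groups and rose less. It had 2275, 2848, 2293 and 2839 CPM in Vehicle samples 1 to 4 and 3435, 4009.7, 4048 and 3095 CPM in AG636 samples 1 to 4. The lowest AG636 sample, sample 4, was only slightly above the highest Vehicle sample. Means were 2564 ± 323 CPM in Vehicle and 3647 ± 462 CPM in AG636 (SD, n = 4). On the log2 scale AG636 was higher by 0.51 (SE 0.12, 95% interval 0.24 to 0.77, limma adjusted p = 0.0192), or 1.42-fold. The call was lost without Vehicle sample 1 (log2 fold change 0.45, limma adjusted p = 0.0686) or Vehicle sample 3 (0.45, limma adjusted p = 0.0724). A difference between the changes of Neat1 and Malat1 was not tested.

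The rise of both long RNAs was also seen in their plain share of all counts, with no TMM factor. This measure is close to scaling by library size alone, which turned the calls over all genes to 918 higher and 571 lower. It is therefore no separate support. Neat1 took 0.00743% ± 0.000614 of counts in Vehicle and 0.0174% ± 0.00789 in AG636, and Malat1 took 0.250% ± 0.0328 and 0.372% ± 0.0406 (SD, n = 4). Each share was higher in AG636 at p = 0.0286 when all 70 relabellings of the samples were enumerated (exact permutation test, two-sided, adjusted p = 0.0286 over the 2 shares), the smallest p this design allows. Groups that do not overlap always give this p, so it adds nothing to the lack of overlap given above. The difference for Neat1 was 0.01002 percentage points and fell to 0.00642 without AG636 sample 3, and its exact permutation p was 0.0857 without any 1 Vehicle sample. Per sample, the Neat1 counts were 468, 531, 496 and 516 in Vehicle and 700, 759, 1728 and 1218 in AG636, so that counting error was small beside the spread between AG636 samples (for AG636 sample 3, 0.0282% with a 95% Wilson interval of 0.0269% to 0.0296%).

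**Figure D3:**
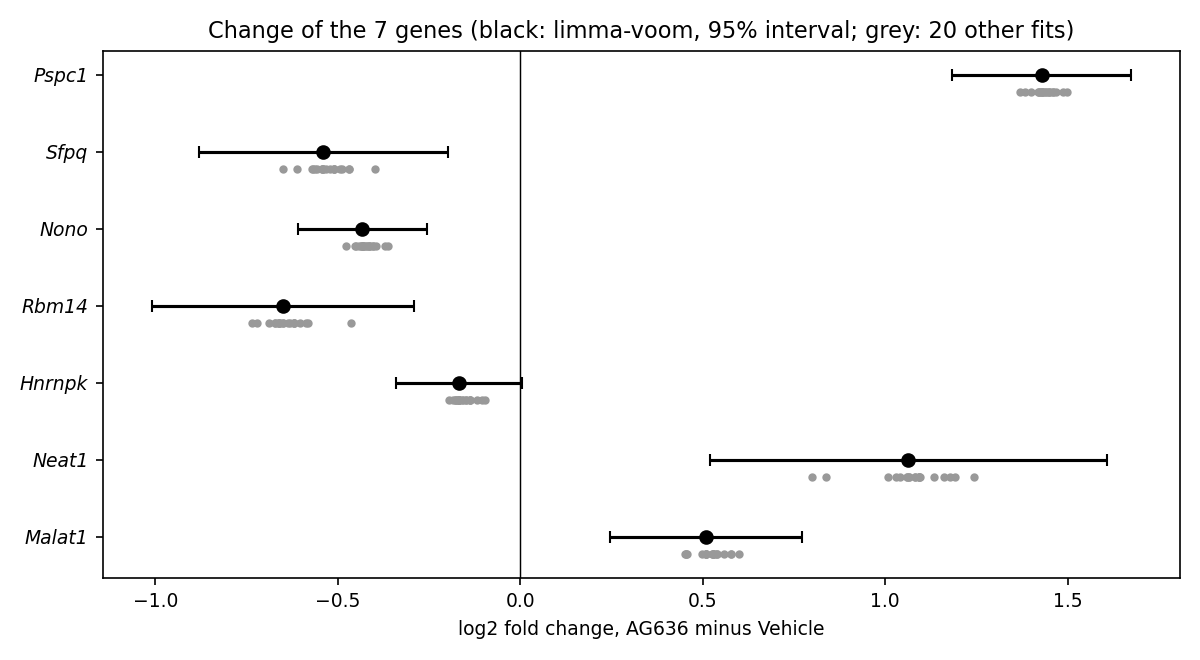
Log2 fold change, AG636 minus Vehicle (x axis), of the 7 genes in the limma-voom fit, with the 95% interval (black) and the values of 20 other fits, scalings, filters or left-out samples (grey). All values for each gene kept their sign. Hnrnpk, at -0.17, had an interval that reached 0.

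By level, the order in Vehicle was Malat1, Hnrnpk, Sfpq, Nono, Neat1, Rbm14 and Pspc1, and the ranges of neighbors in this order overlapped for Neat1 and Rbm14 only. In AG636 the order was Malat1, Hnrnpk, Sfpq, Nono, Neat1, Pspc1 and Rbm14, so that Pspc1 and Rbm14 changed places, and the ranges overlapped for Sfpq and Nono and for Neat1 and Pspc1. The comparison is of 3′ tag counts and not of levels per length, and for Neat1 and Malat1 it depends on where they were primed.

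The spread between AG636 samples differed widely among the members. The coefficient of variation of Neat1 was 7.54% in Vehicle and 44.6% in AG636, where it was at or above that of 98.7% of the 5261 genes whose log2 CPM averaged at least 5. Sfpq and Rbm14 went from 8.05% to 23.9% and from 7.33% to 23.7%. In contrast, Pspc1 had 8.29% and 11.8%, Nono 2.52% and 7.97%, Hnrnpk 4.97% and 5.08% and Malat1 12.6% and 12.7%, against a median over genes of 7.31% and 12.005%. The rise of Pspc1 and the fall of Nono were thus more even across AG636 samples than those of Neat1 and Sfpq.

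Markers of other cells were set beside these values. The summed level of 6 erythroid genes was 2052 to 5901 CPM in Vehicle and 4476 to 5952 CPM in AG636 and overlapped, with Hbb-bt as the 1 of the 6 called, as higher. The 6 mature neutrophil genes summed to 40.1 to 93.8 CPM in Vehicle and to 13.8, 147, 18.5 and 179 CPM in AG636 samples 1 to 4, and Ly6g had at most 5 counts. The 4 megakaryocyte genes summed to 11.1 to 16.9 CPM in Vehicle and to 32.8, 8.78, 59.8 and 28.9 CPM in AG636 samples 1 to 4, while Gp1bb was at 0 counts throughout. B cell genes (5, 4.30 to 10.2 against 7.98 to 17.8 CPM, with 1 of the 4 tested called higher) and macrophage genes (5, 2.15 to 5.42 against 3.19 to 10.6 CPM) were low in both groups. The 6 T and NK cell genes were low too, at 2.43 to 10.2 CPM in Vehicle and 7.78, 5.43, 19.6 and 10.3 CPM in AG636 samples 1 to 4. AG636 sample 3 was highest for the megakaryocyte and the T and NK cell genes, as for Neat1. Below it, sample 4 came next for Neat1 and for the T and NK cell genes, and sample 1 for the megakaryocyte genes. AG636 samples 1 and 2 were the lowest for Neat1 (109 and 121 CPM) and for the T and NK cell genes. AG636 sample 4 was highest for the neutrophil, B cell and erythroid genes and sample 1 for the macrophage genes. The part of these cells in the changes of the members was not tested.

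Other genes of these nuclear bodies were taken from lists made by known role. Among 28 other paraspeckle proteins, 0 were higher (against 5.47% of all tested genes) and 6 were lower (21.4%, against 8.49%). At a share of 5.47%, a list this short may well hold 0. At an unadjusted limma p under 0.05, 1 was higher, Cirbp, a cold-induced RNA-binding protein (log2 fold change 0.64, limma adjusted p = 0.0933), which DESeq2 called and edgeR did not. The list median was -0.08 on the log2 scale, against -0.01 over all tested genes. Hnrnph1, a splicing regulator, went from 91.4 ± 5.41 to 53.8 ± 11.9 CPM (log2 fold change -0.80, limma adjusted p = 0.00867). Hnrnpf, its relative, fell by 0.48 (limma adjusted p = 0.0106), Ewsr1, a FET family protein, by 0.53 (0.0108) and the SR-related Srsf10 by 0.31 (0.0317), and Fam98a and Ubap2l were also called. The other FET genes and the CFIm subunits, Cpsf6, Cpsf7 and Nudt21, of which NUDT21 acts in the choice between Neat1 isoforms, were not called. Only 3 of the 28 were called without Vehicle sample 1 (7.2% of all genes called), Vehicle sample 4 (9.11%) or AG636 sample 1 (9.43%). Scaling by library size alone also left 3 (13.6%), and 3 of 28 is near these shares.

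Among 23 other hnRNP proteins, 0 were higher (against 5.47% of all tested genes) and 8 were lower (34.8%, against 8.49%). The list median was -0.20 on the log2 scale. Of the 8, 2, Hnrnph1 and Hnrnpf, also belong to the paraspeckle list. Ptbp1, a repressor of exon inclusion, went from 185 ± 9.96 to 110.3 ± 14.1 CPM (log2 fold change -0.76, limma adjusted p = 0.00218). Syncrip (-0.49, limma adjusted p = 0.00454), Hnrnpm (-0.56, 0.00588) and Hnrnpu, a nuclear matrix protein (-0.57, 0.00729), were lower as well. At an unadjusted limma p under 0.05 the count of higher genes was also 0, as it was with edgeR and DESeq2. Hnrnpk itself, at -0.17, was near the list median.

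Of 26 nuclear speckle and SR proteins, the neighbors of Malat1 in the nucleus, 25 were tested and Srsf12 had 0 counts. With limma 0 were higher (against 5.47% of all tested genes), as at an unadjusted p under 0.05 and with edgeR and DESeq2. By limma 7 were lower (28%, against 8.49% of all tested genes), with a median of -0.09 on the log2 scale. Srsf1, a splicing activator, went from 498 ± 40.9 to 344 ± 9.74 CPM (log2 fold change -0.53, limma adjusted p = 0.00387). Srsf2 (-0.51, limma adjusted p = 0.00495), Srsf6 (-0.51, 0.00660) and U2af2, the large U2AF subunit (-0.49, 0.00679), also fell. Srsf3, Srsf9 and Srsf10 were the other calls, and Srsf10 also belongs to the paraspeckle list. The scaffold genes Son, Srrm1 and Srrm2 had log2 fold changes of 0.07, 0.00 and -0.09 and were not called. Without Vehicle sample 4 (9.11% of all genes called), or with scaling by library size alone (13.6%), 4 of the 25 were called.

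The enzymes that cut the ends of Neat1 and Malat1 and remove the small tRNA-like RNA were read from 12 genes of RNase P and RNase Z, of which 11 were tested and Rpp25 had 0 counts. By limma 0 were higher (against 5.47% of all tested genes), as at an unadjusted p under 0.05 and by edgeR and DESeq2. With limma 4 were lower (36.4%, against 8.49% of all tested genes), with a list median of -0.34 on the log2 scale. Pop1, the large RNase P protein, went from 47.1 ± 3.18 to 29.4 ± 1.86 CPM (log2 fold change -0.68, limma adjusted p = 0.00301). Elac2, the long RNase Z, had 28.0 ± 2.44 CPM in Vehicle and 19.5 ± 2.90 CPM in AG636 (-0.53, limma adjusted p = 0.0275), Rpp40 was at -0.77 (0.0277) and Rpp14 at -0.43 (0.0323). This count was weak. Only 1 of the 11 was called without Vehicle sample 2 (8.27% of all genes called), 3 (6.19%) or 4 (9.11%). The count was also 1 without AG636 sample 2 (11.2%) or with no filter (5.13%), and 1 of 11 is near these shares. It was 2 without Vehicle sample 1 (7.2%) or with scaling by library size alone (13.6%).

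The genes listed as other nuclear long RNAs, not all of which are confined to the nucleus, did not move together. Of 18 listed, 10 were tested, with a median of 0.03 on the log2 scale. Of these, 2 were higher (20%, against 5.47% of all tested genes) and 2 were lower (20%, against 8.49%). Pvt1, a long RNA beside Myc, went from 54.0 ± 7.13 to 105 ± 10.3 CPM (log2 fold change 0.96, limma adjusted p = 0.00178), and Jpx, which acts on Xist, was higher by 0.78 (limma adjusted p = 0.0168). Mir17hg, the host of a microRNA cluster that drives proliferation, fell by 0.77 (limma adjusted p = 0.00588), and the imprinted Kcnq1ot1 fell by 0.46 (limma adjusted p = 0.0312). Meg3, Airn and Rn7sk were too low to test, with at most 12, 5 and 10 counts in a sample, Rmrp and Miat had 0 counts, and Rn7sl, Norad and Oip5os1 were not matched by symbol. Without Vehicle sample 1 (7.2% of all genes called) or 3 (6.19%) the calls in this list were 2 of 10.

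**Figure D4:**
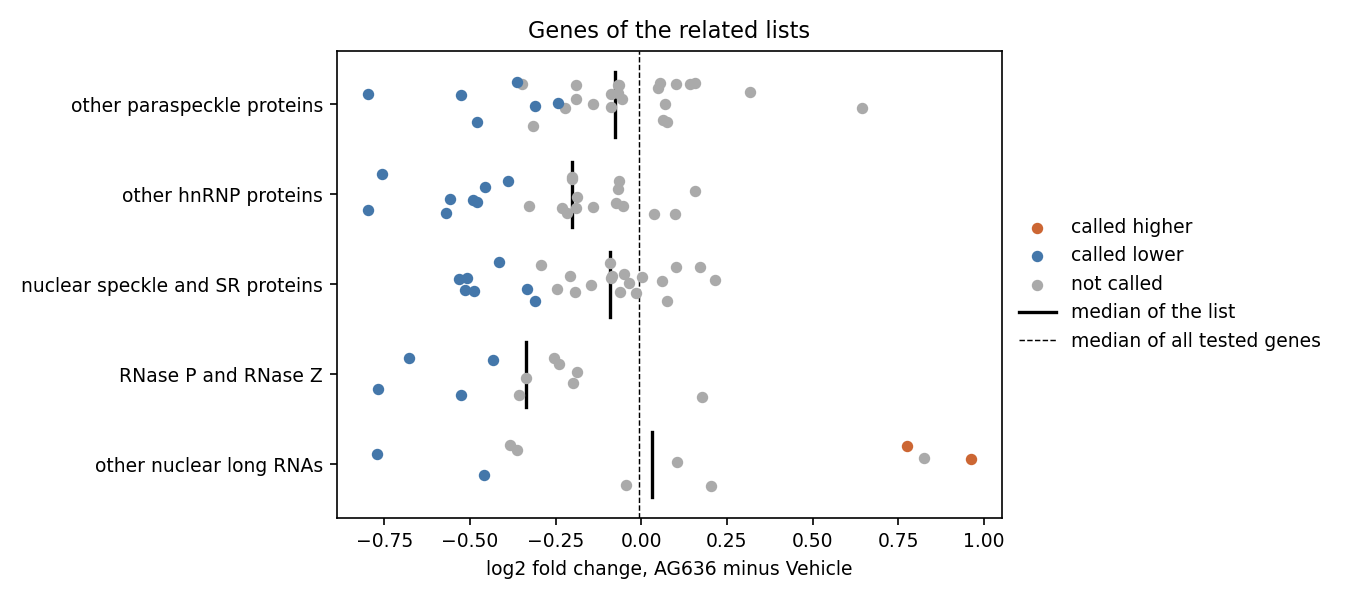
Log2 fold change, AG636 minus Vehicle (x axis), of the tested genes of 5 related lists (rows), colored by their call, with the median of each list (black) and of all tested genes (dashed, at -0.01). Calls in the 4 protein lists were all toward lower levels (6, 8, 7 and 4, or 21.4%, 34.8%, 28% and 36.4%, against 8.49% of all tested genes). None was higher, against 5.47% of all tested genes, a share at which lists this short may hold 0. Hnrnph1, Hnrnpf and Srsf10 are each counted in 2 of these lists. The nuclear long RNAs had 2 in each direction (20% each, against 5.47% higher and 8.49% lower).

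The genes whose 8 values were closest to those of each member were named by the root mean square difference of centered log2 CPM over 8 samples, among the same higher-level genes. For Pspc1 these were Hist2h2be (0.219), Popdc2 (0.234), P2rx7 (0.290), Uba7 (0.295) and Pvt1 (0.304), where the median gene differed by 0.761. For Sfpq they were Uhrf1 (0.0927), Hspa5 (0.100) and Exosc2 (0.105), for Nono Nob1 (0.0478), Snrnp200 (0.0564) and Anp32b (0.0602), and for Rbm14 Sfpq itself (0.109), Cad (0.120) and Slc16a1 (0.125). Cad encodes the enzyme of the pyrimidine pathway that acts before DHODH. For Neat1 they were Nol4l (0.282), Trim30a (0.321) and Cdkn2d (0.322), and for Malat1 Hist1h4i (0.0884), Rnf26 (0.0937) and Sun2 (0.0991), and Hnrnpk was closest to Snx1, Smc6 and Serf2. The measure follows the group difference as well as the spread within groups, and the nearest gene to Neat1 differed by more than the nearest gene to any other member.

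Reads could be shared with overlapping genes, since strand use in counting is not stated. Of 11 genes that overlapped a member, 8 had 0 counts, among them all 6 that overlapped Neat1 or Malat1. A read lying in overlapping genes may have been left uncounted, so a count of 0 does not show that none fell there. Gm12940 on the strand of Sfpq had 258 counts in all, against 31981 for Sfpq. Gm21992 on the strand of Rbm14 had 86, against 2701, and Rmi1, opposite Hnrnpk, had 1935, against 59988. Gm12940 and Rmi1 were not called (log2 fold changes 0.06 and 0.13), and no gene overlapped Pspc1 or Nono.

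Neat1 and Malat1 lie 22.04 kb apart on chromosome 19, with Rbm14 further along, so nearby genes were also read. Of the 48 tested genes within 500 kb of Neat1, 1 was higher, which was Malat1, and 4 were lower, namely Eif1ad, Sssca1, Vps51 and Men1. Around Rbm14, 1 of 18 was called, Dpp3 at a distance of 95.6 kb (log2 fold change -0.44, limma adjusted p = 0.00887). Around Pspc1, 1 of 8 was called, 2410022M11Rik at 33.7 kb (1.01, limma adjusted p = 0.0475), and around Sfpq 1 of 10, AU040320 at 151 kb (0.61, limma adjusted p = 0.0460). By limma 0 of 6 near Nono and 0 of 7 near Hnrnpk were called, with 2 and 0 at an unadjusted p under 0.05, 0 and 0 by edgeR and 1 and 0 by DESeq2. The shares were below or near those over all tested genes.

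**Figure D5:**
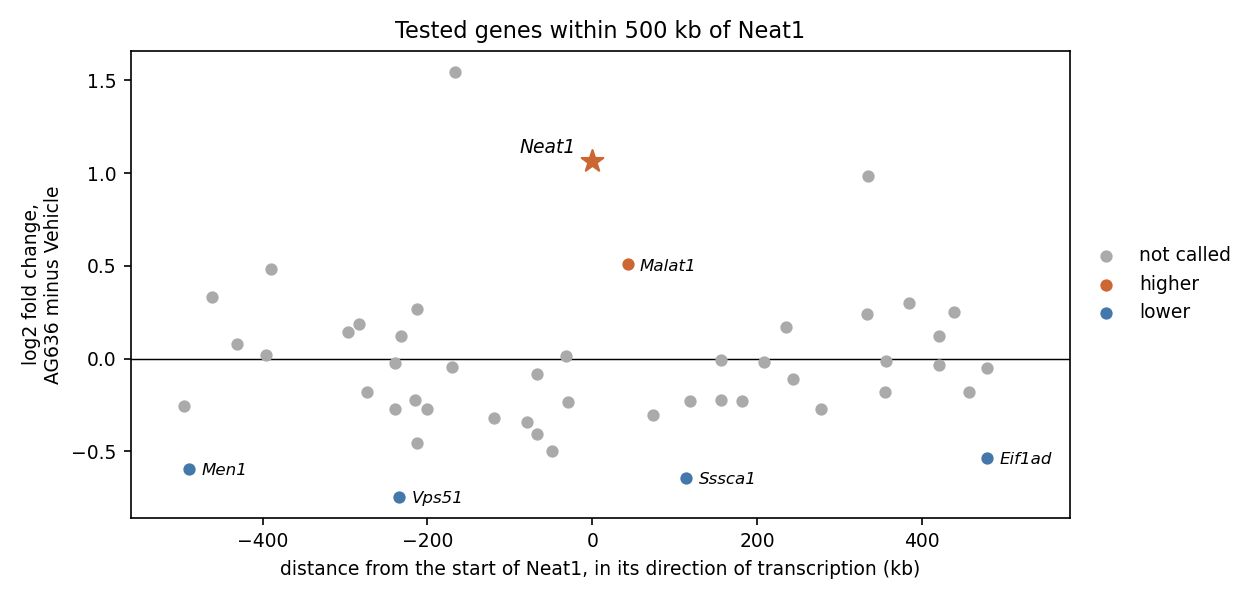
Log2 fold change, AG636 minus Vehicle (y axis), of the tested genes within 500 kb of Neat1 against the distance from its start in kb (x axis), colored by call. Malat1 was the only other gene called higher, 4 were called lower, and the uncalled genes above 0.9 were Gm10814 (1.55) and Snx32 (0.98), both of low count.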

How the data were processed

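RNA was measured in 8 samples (4 Vehicle, 4 AG636), grouped by their titles. The authors sequenced QuantSeq 3′ libraries and deposited unnormalized read counts for each gene. The submitters' processing notes name FastQC, cutadapt 1.9.1, HISAT2 2.0.4, featureCounts and Subread 1.5.0-p3 and the build GRCm38 (mm10). Strand use and multiply mapped reads are not stated, so overlapping genes and near-identical copies are uncertain. The 7 genes and all lists were chosen with earlier results of these data known.

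A gene name table gave symbols for all but 115 genes. Genes were kept by filterByExpr (minimum count 10), scaled by TMM and compared by limma-voom with group as the only term, two-sided, with Benjamini-Hochberg adjustment over 10911 genes and a threshold of 0.05. R 4.3.3 was used with edgeR 4.0.16 and limma 3.58.1. The fit was tested on simulated data. Level ranges, shares with 95% Wilson intervals and neighbors within 500 kb were computed from the same table. Beyond the 7 genes, the text names up to 4 called genes of smallest p per list and direction, untestable long RNAs, the genes of closest profile, overlapping genes, the nearest called neighbors and, where a level touches a result, marker genes. Other genes named in the lists, the 3 further called neighbors of Neat1 and its uncalled neighbors were picked after their values were seen. Promoters came from RefSeq and transcripts from GENCODE M21. Alternatives were limma-trend, sample weights, DESeq2 1.42.0, the quasi-likelihood test of edgeR, other scalings and filters, a replicate block, stricter thresholds and each sample left out. The planned identity between DBHS proteins was not run. Python pandas 2.3.3 and matplotlib 3.10.9 read the sequences and drew the plots.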

Additional observations from a re-analysis of the deposited data

Results flagged for a closer look

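The Sfpq level of Vehicle sample 4, 803 CPM, lay far from the other 3 Vehicle samples, which had 680.1 to 695 CPM, when the gap to the nearest sample was set against the range of the group. Without this sample the log2 fold change of Sfpq was -0.47 and was no longer called (limma adjusted p = 0.108). It was the only one of 24 combinations of a measure and a group to stand out in this way, and chance gives 1.2 of 24.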

How the results depend on the processing

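All 7 genes kept their direction under each of 20 alternatives per gene. Nono was called and Hnrnpk was not in all 20, while Sfpq was called in 13, Rbm14 in 16 and Neat1 and Malat1 in 18 each. With scaling by library size alone, the log2 fold change of Sfpq was -0.47 (limma adjusted p = 0.0749). At an adjusted p under 0.01, 435 genes and 1 of the 6 members other than Pspc1 were called, and with a log2 change of at least 1 as well as the 0.05 threshold, 216 and 1. Leaving out 1 sample at a time gave 688 to 1706 called genes, 1 to 5 called of the 6, and log2 fold changes of -0.65 to -0.40 for Sfpq, -0.74 to -0.46 for Rbm14, 0.80 to 1.24 for Neat1 and 0.45 to 0.60 for Malat1. The difference in the Neat1 share of counts ranged from 0.00642 to 0.0121 percentage points, at an exact permutation p of 0.0857 without any 1 Vehicle sample. Each such fit held 1 sample fewer, and the cause of these losses was otherwise not tested.

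Samples with the same number in both groups did not clearly deviate together (correlations of -0.14, 0.014, 0.20 and 0.14). No pairing by number was thus seen, although a weak one could be missed. With the replicate block, 1446 genes (616 higher, 830 lower) were called (13.3%) and 5 of the 6, and 3 of the 28 other paraspeckle proteins. Totals were 6120030 to 7162036 counts per sample, and 8 of the 18 other nuclear long RNAs could not be tested.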

Other observations

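AG636 samples 1 and 2 and samples 3 and 4 differed in several ratios between members, which was noticed after the values were seen and has no test. Sfpq per 100 Nono counts was 98.4 and 113 in AG636 samples 1 and 2 and 178 and 181 in samples 3 and 4, and 146, 140.2, 142 and 166 in Vehicle samples 1 to 4, so that the AG636 samples lay on both sides of Vehicle. Neat1 per 100 Malat1 counts was 3.17 and 3.02 in AG636 samples 1 and 2, within or near the Vehicle values of 2.997, 2.87, 3.35 and 2.77, and 6.81 and 5.69 in samples 3 and 4. Pspc1 per 100 Nono counts did not follow this split, at 24.1, 25.9, 28.4 and 36.3 in AG636 and 7.35 to 8.28 in Vehicle. Whether the samples of each kind share a tissue or a mouse is not given in the labels.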
